A study of Mus musculus with 4 samples.

Results

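The genes described here encode the enzymes that hydroxylate and cross-link collagen, the lysyl oxidases Lox, Loxl1, Loxl2, Loxl3 and Loxl4, the lysyl hydroxylases Plod1, Plod2 and Plod3, and the prolyl 4-hydroxylase subunits P4ha1 and P4ha2. They were chosen by name for that function, as the list LOX, LOXL1, LOXL2, LOXL3, LOXL4, PLOD1, PLOD2, PLOD3, P4HA1 and P4HA2 in human symbols. Of these 10 genes, 9 were among the 14718 mouse gene symbols with values at either time point. RNA-seq values were used for all 9 at 7 days post injury (dpi), for 8 at 21 dpi and for the same 8 at both. Loxl4 was not analysed here at either time point, nor was P4ha1 at 21 dpi.

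RNA came from spinal cord segments of about 4 mm around the lesion in male mice that received a 50 kdyne contusion, an incomplete injury, at 3 to 5 months of age. The mice were targeted replacement (TR) animals, in which the coding region of human ApoE3 or ApoE4 stands in place of that of the mouse Apoe gene in every cell. There were 4 groups, ApoE3 and ApoE4 at 7 dpi and ApoE3 and ApoE4 at 21 dpi, each of 3 mice, and every mouse of these groups was injured. No uninjured tissue was analysed here. Markers of spinal cord were abundant in the groups at 7 dpi. The myelin gene Mbp had 120571 FPKM in ApoE3 mice and 127575 in ApoE4 mice, the astrocyte gene Gfap had 12395 and 12386, and the neuronal gene Snap25 had 3366 and 2545.

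Levels are given in FPKM, fragments normalized to transcript length and to sequencing depth, so that genes can be compared with each other. There was 1 value per gene for each group and none for single mice, so no difference below has a replicate check and no test was possible. The number of reads behind each value is unknown. Ratios are on the log2(FPKM + 1) scale, which makes differences of weakly expressed genes look smaller, and are written as ApoE4 over ApoE3, so that a positive value means higher in ApoE4. A gene is counted as past the threshold at a 1.3-fold difference on that scale, a log2 ratio of 0.38. The genotype of the value columns has 2 possible readings. The comparison named on each row places ApoE3 in the numerator and that reading was used, but the numbering of the columns would place ApoE4 there, and every direction between the genotypes would then be the opposite. Highest and lowest ratios between the genotypes would then change places, and percentiles of these ratios would count from the other end.

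Collagen chains are modified in the endoplasmic reticulum, where prolyl 4-hydroxylase converts proline to hydroxyproline, which keeps the collagen helix stable at body temperature, and lysyl hydroxylases convert selected lysines to hydroxylysine. After secretion, the copper-dependent lysyl oxidases turn lysine and hydroxylysine side chains into reactive aldehydes, which then join neighbouring collagen or elastin molecules. In the injured spinal cord, fibroblasts and perivascular cells lay down a collagen-rich scar in the lesion core, and the cross-links set how stiff and how durable such a matrix is.

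At 7 dpi all 9 enzyme genes were higher in ApoE4 than in ApoE3. Lox, Loxl1, Loxl2 and Plod2 were past 1.3-fold, and the other 5 lay below it. For Loxl3 this depended on the pseudocount, as its log2 ratio was 0.39 with 0.1 and 0.40 with 0.01, both past 1.3-fold. Past 1.3-fold were therefore 4 of 9 genes in the direction of ApoE4 and 0 in that of ApoE3, compared to 4.76% and 3.78% of the 14127 rows at this time point. The median log2 ratio of the 9 genes was 0.33, and that of all rows was -0.0020. With that median subtracted, the counts were again 4 and 0 of 9, compared to 4.83% and 3.74% of rows. In bulk tissue, more cells of a type and more RNA per cell cannot be told apart.

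Within the hydroxylases, P4ha1 had the highest level of the 9 genes at 7 dpi, with 108 FPKM in the ApoE3 group and 132 in the ApoE4 group. It encodes the more widely expressed catalytic subunit of prolyl 4-hydroxylase, and it made up 39.4% of the summed FPKM of the 9 genes in ApoE3 and 38.4% in ApoE4. P4ha2, an alternative catalytic subunit that pairs with the same partner protein, had 11.8 FPKM in ApoE3 compared to 12.2 in ApoE4. The level of P4ha1 was 9.17-fold that of P4ha2 in ApoE3 and 10.8-fold in ApoE4. The log2 ratio of ApoE4 to ApoE3 was 0.29 for P4ha1 and 0.043 for P4ha2, so P4ha2 differed least between the genotypes among the 9 genes.

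The promoters of both subunits are shown because prolyl 4-hydroxylase genes are known for their response to low oxygen. RefSeq sequences of GRCm38.p6 matched 5 of the 10 genes, namely Loxl4, P4ha1, P4ha2, Plod1 and Plod3. The 250 bases before each start were searched on both strands for ACGTG and GCGTG, the core letters of the hypoxia response element, and no matches overlapped. Capitals mark these letters, written CACGT or CACGC where the match is on the opposite strand. The P4ha1 sequence is the plus strand of chr10:59323046-59323295 and that of P4ha2 the plus strand of chr11:54100674-54100923, each read 5′ to 3′.
P4ha1: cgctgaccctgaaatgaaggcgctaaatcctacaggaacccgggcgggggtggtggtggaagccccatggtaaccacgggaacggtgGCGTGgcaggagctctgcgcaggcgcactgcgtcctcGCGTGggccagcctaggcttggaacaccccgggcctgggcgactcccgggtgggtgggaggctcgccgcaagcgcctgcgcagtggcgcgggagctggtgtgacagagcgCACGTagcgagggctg
P4ha2: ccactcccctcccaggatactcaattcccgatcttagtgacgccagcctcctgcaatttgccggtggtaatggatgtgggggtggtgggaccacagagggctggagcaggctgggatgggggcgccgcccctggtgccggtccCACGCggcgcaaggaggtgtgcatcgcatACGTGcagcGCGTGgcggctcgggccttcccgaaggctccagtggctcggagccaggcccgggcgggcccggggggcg
Both promoters held 3 matches, and 6.58% of the 32851 promoters in the table held at least 3. Plod3 held 4 matches, a number reached by 2.58% of promoters, whereas Plod1 and Loxl4 held 1 each, and 38.6% of promoters held at least 1. Whether these letters bear on the level of any of the genes was not tested. A match describes letters and does not show that a factor binds there.

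Plod1 was the second most abundant of the 9 genes at 7 dpi, with 49.9 FPKM in ApoE3 mice and 55.4 in ApoE4 mice. Its product hydroxylates lysines within the helical part of collagen. Plod2, whose product acts on the lysines of the telopeptides at the ends of the helix and is known from fibrotic tissue, had 20.4 FPKM in the ApoE3 group and 28.8 in the ApoE4 group. Plod3, which also carries a glycosyltransferase activity towards hydroxylysine, had 15.5 FPKM in ApoE3 compared to 18.4 in ApoE4. The log2 ratios were 0.15 for Plod1, 0.48 for Plod2 and 0.23 for Plod3. Among the lysyl hydroxylases, the telopeptide enzyme thus had the largest ratio and the most abundant enzyme the smallest.

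Among the lysyl oxidases, Loxl2 was the most abundant at 7 dpi, with 34.4 FPKM in ApoE3 mice and 48.1 in ApoE4 mice. Loxl2 and Loxl3 carry scavenger receptor domains, and Loxl2 is known for cross-linking the basement membrane collagen type IV as well as fibrillar collagen. Lox, the founding member of the family, had 14.8 FPKM in the ApoE3 group and 22.4 in the ApoE4 group. Loxl1, known for its part in elastic fibers, had 16.3 FPKM in ApoE3 compared to 21.9 in ApoE4. Loxl3 was the least abundant of the 9 genes, with 4.09 FPKM in ApoE3 mice and 5.40 in ApoE4 mice. The log2 ratios were 0.56 for Lox, 0.41 for Loxl1, 0.47 for Loxl2 and 0.33 for Loxl3. Lox had the largest ratio of the 9 genes, and among all rows at 7 dpi its ratio stood at percentile 98.3, while that of Loxl3, the lowest of the family, stood at percentile 93.5. Under the other reading of the columns, Lox would instead have the lowest ratio of the 9 genes. The summed FPKM of the 4 lysyl oxidases was 69.6 in ApoE3 and 97.9 in ApoE4, a ratio of 1.41, and that of the 3 lysyl hydroxylases was 85.7 and 103, a ratio of 1.197.

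**Figure D1:**
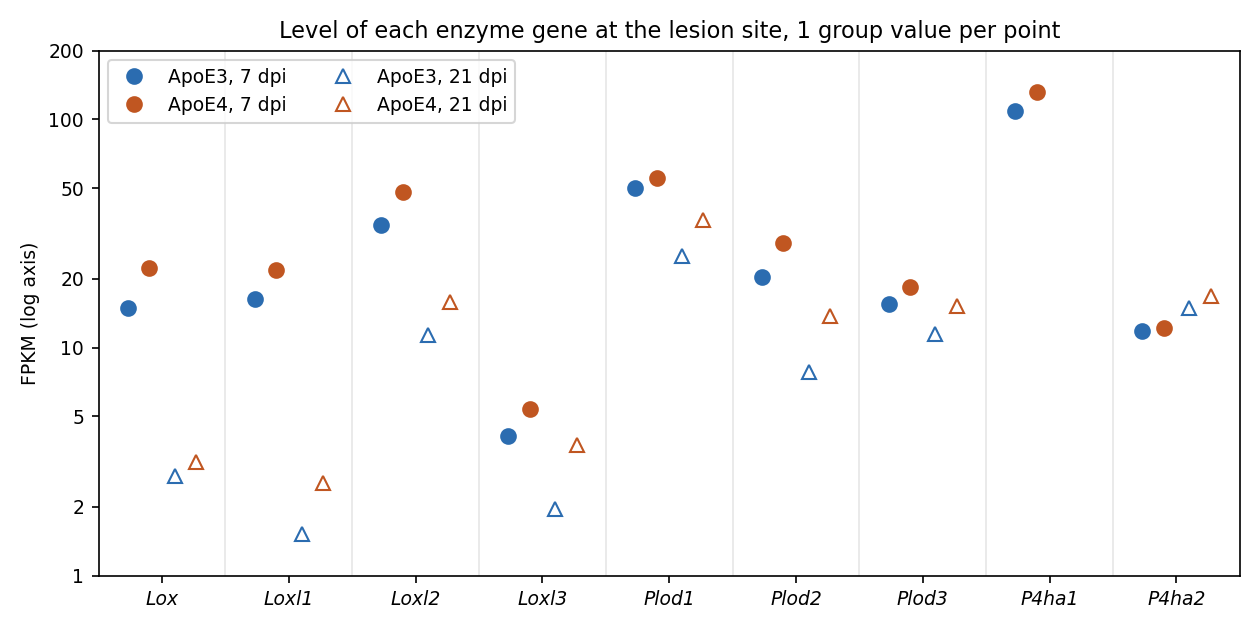
FPKM on a log axis for each enzyme gene, with 1 point per group, circles for 7 dpi, triangles for 21 dpi, blue for ApoE3 and orange for ApoE4. At 7 dpi every orange circle lies above the blue circle of the same gene, P4ha1 lies highest at 108 and 132 FPKM, and the triangles of Lox and Loxl1 lie far below their circles.

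The order of levels was similar in both genotypes at 7 dpi. P4ha1, Plod1, Loxl2 and Plod2 took the first 4 ranks in this order in each, and P4ha2 and Loxl3 the last ranks. Lox stood at rank 7 in ApoE3 and at rank 5 in ApoE4. The levels of Lox, Loxl1 and Plod3 lay between 14.8 and 16.3 FPKM in ApoE3, and no spread is known by which such neighbours could be separated. The genes were of low to moderate abundance for this tissue. P4ha1 stood at percentile 78.2 of all rows in ApoE3, Plod2 at percentile 38.5 and Loxl3 at percentile 11.1.

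Some of these genes share exonic bases with a neighbour in the GENCODE vM21 annotation, and the library kit does not mark strand, so reads from such bases cannot be told apart. Loxl3 shares 11.6% of its exonic bases with Htra2 on the opposite strand. Plod3 shares 11.9% with Znhit1 and the microRNA gene Mir702. The share was 6.42% for Plod2, 5.70% for Loxl2 and 0.628% for Lox, and Loxl1, Plod1, P4ha1 and P4ha2 had none.

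At 21 dpi all 8 enzyme genes used at this time point were higher in ApoE4 as well, but so were 93.8% of the 11474 rows. The median log2 ratio of all rows was 0.42, a 1.34-fold difference, and the FPKM summed over all rows was 1513867 in ApoE3 and 2050622 in ApoE4. The libraries had equal read numbers before alignment, but 1 replicate, whose group is not named in the sources used here, aligned at a lower rate, and its part in this shift was not tested. Past 1.3-fold were 5 of 8 enzyme genes in the direction of ApoE4 and 0 in that of ApoE3, compared to 58.9% and 2.02% of all rows, a share near the background. Relative to the median of all rows, 0 of 8 were past 1.3-fold in either direction, compared to 8.07% of rows higher and 7.46% lower in ApoE4. The median of the 8 genes was 0.47 as computed and 0.048 relative to all rows, with 5 genes above that median and 3 below it.

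The single genes at 21 dpi are therefore given with both values. Plod2 had 7.84 FPKM in the ApoE3 group and 13.8 in the ApoE4 group, a log2 ratio of 0.74 and of 0.32 relative to all rows. Loxl3 had 1.96 FPKM in ApoE3 compared to 3.74 in ApoE4, a log2 ratio of 0.68 and of 0.26 relative to all rows. These were the highest of the 8 ratios, and Loxl3 is a gene at the low end of the scale whose ratio depended on the pseudocount. Lox, which led at 7 dpi, had 2.73 FPKM in ApoE3 mice and 3.14 in ApoE4 mice, a log2 ratio of 0.15 that lay below the median of all rows, at -0.27 relative to it. P4ha2 had 14.8 FPKM in the ApoE3 group and 16.8 in the ApoE4 group, with a log2 ratio of 0.17 and of -0.26 relative to all rows. Lox and P4ha2 thus had the lowest ratios at this time point.

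Between them lay the other 4 genes. Loxl1 had 1.52 FPKM in ApoE3 compared to 2.56 in ApoE4, Loxl2 had 11.4 and 15.9, Plod1 had 25.3 and 36.1, and Plod3 had 11.5 and 15.1. Their log2 ratios ran from 0.37 for Plod3 to 0.50 for Loxl1, and relative to all rows from -0.055 to 0.073. Loxl2, Plod1 and Plod3 therefore stood near the average gene in this comparison. For Loxl1, with its low values, the ratio depended on the pseudocount and was 0.71 with 0.1 and 0.74 with 0.01.

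**Figure D2:**
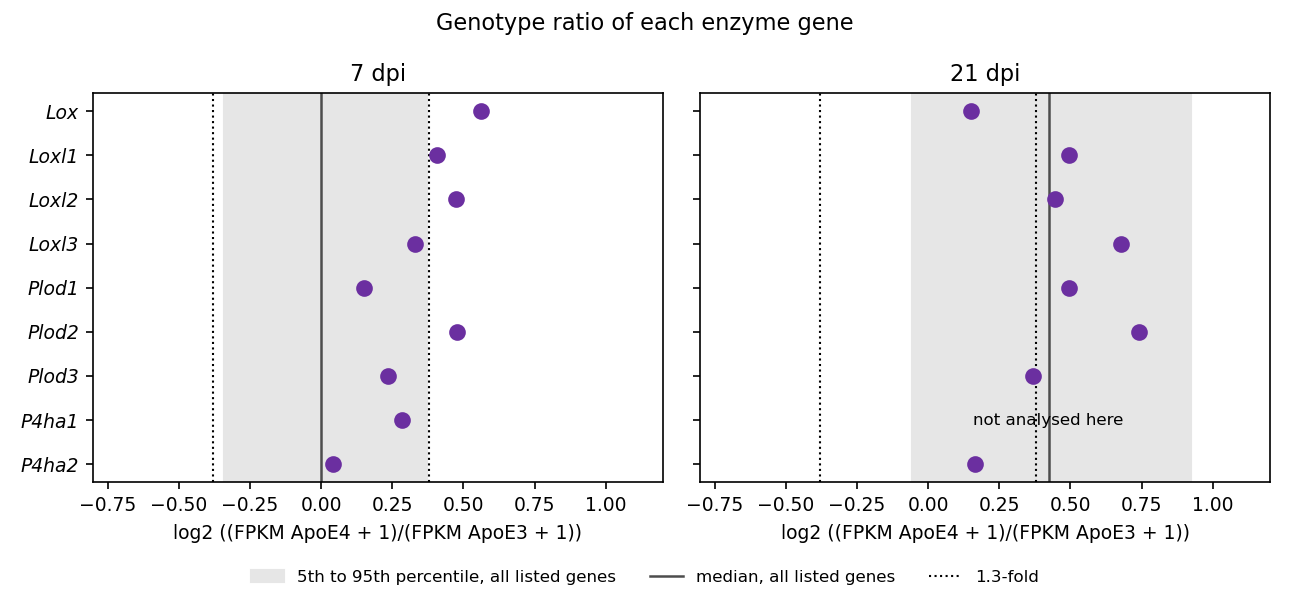
Log2 ratio of ApoE4 to ApoE3 on the log2(FPKM + 1) scale for each enzyme gene at 7 dpi and at 21 dpi, with the median of all listed genes as a line, the 5th to 95th percentile of all listed genes in grey and 1.3-fold as dotted lines. At 7 dpi Lox, Loxl1, Loxl2 and Plod2 lie beyond the grey band, while at 21 dpi all 8 genes lie inside a band that is itself moved to the right, with a median of 0.42.

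From 7 to 21 dpi most of the enzyme genes were lower in both genotypes. The 2 time points were processed in separate comparisons, so levels across them are set side by side as a description. In ApoE3, 7 of 8 genes were past 1.3-fold lower at 21 dpi and 0 higher, compared to 23.6% and 31.3% of the 10876 genes with values at both time points. In ApoE4, 6 of 8 were lower and 1 was higher, compared to 10.9% and 59.0% of genes. The median log2 ratio of 21 to 7 dpi was -1.11 in ApoE3 and -0.81 in ApoE4, and that of all genes was 0.088 and 0.53. With the median of all genes subtracted, 7 of 8 enzyme genes were past 1.3-fold lower and 0 higher in each genotype. The share of genes lower and higher was then 27.7% and 26.6% in ApoE3 and 28.6% and 26.2% in ApoE4, and the median of the enzyme genes was -1.20 and -1.33.

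The lysyl oxidases Loxl1 and Lox had the lowest ratios of 21 to 7 dpi. Loxl1 was at -2.78 in ApoE3 and -2.69 in ApoE4 on the log2 scale, and Lox at -2.09 and -2.50. Loxl2 was at -1.52 and -1.54, and Loxl3 at -0.78 and -0.43. The order from Loxl1 to Loxl3 was the same in both genotypes. Of the lysyl hydroxylases, Plod2 was at -1.27 in ApoE3 and -1.01 in ApoE4, Plod1 at -0.95 and -0.60, and Plod3 at -0.40 and -0.27. The enzyme of the telopeptides had the lowest ratio in both genotypes, and Plod3 had the smallest difference between the time points.

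P4ha2 went the other way on the scale as computed, at 0.30 in ApoE3 and 0.43 in ApoE4, the latter past 1.3-fold. Relative to all genes it stood at 0.22 in ApoE3 and at -0.098 in ApoE4, so its direction in ApoE4 depends on that shift. As the other genes were lower at 21 dpi, P4ha2 moved from rank 8 of 9 at 7 dpi to rank 2 of 8 at 21 dpi in both genotypes, behind Plod1 and with P4ha1 not used at 21 dpi. As computed, the change was higher in ApoE4 than in ApoE3 for 6 of 8 genes, compared to 90.5% of all genes. With the all-gene median of its own genotype subtracted from each change, it was lower in ApoE4 for all 8, compared to 51.0% of all genes, so the direction depends on that shift. The values after subtraction were -2.18 in ApoE3 and -3.03 in ApoE4 for Lox and -0.87 and -0.96 for Loxl3. The difference between the genotypes in these changes was not tested.

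Some substrates of the enzymes were lower at 21 dpi by a wider margin than the enzymes, but not all of them. Col1a1, Col1a2 and Col3a1, the chains of the main scar collagens, had a summed level of 524 FPKM at 7 dpi and 13.2 at 21 dpi in ApoE3, and of 686 and 10.2 in ApoE4. The level at 7 dpi was thus 39.8-fold that at 21 dpi in ApoE3 and 67.0-fold in ApoE4. The summed level of the 4 lysyl oxidases at 7 dpi was 3.96-fold that at 21 dpi in ApoE3 and 3.87-fold in ApoE4, and that of the 3 lysyl hydroxylases 1.92-fold and 1.58-fold. The ratio of enzyme RNA to the RNA of these 3 collagens therefore differed between the time points. The lysyl oxidases together came to 13.3% of their FPKM in ApoE3 and to 14.3% in ApoE4 at 7 dpi. At 21 dpi they came to 134% and 247% of collagen values that were low, from 1.79 FPKM for Col3a1 in ApoE4 to 8.41 for Col1a2 in ApoE3. All 7 fibrillar collagens with values at both time points summed to 813 FPKM at 7 dpi and 331 at 21 dpi in ApoE3. In ApoE4 they summed to 1030 and 428. Relative to these 7 genes the lysyl oxidases were lower at 21 dpi in both genotypes, so the direction depends on the collagens counted.

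Other fibrillar collagens, those with values at both time points outside that group, differed less between the time points. Col5a3, Col11a1, Col11a2 and Col27a1 summed to 289 FPKM at 7 dpi and 318 at 21 dpi in ApoE3, and to 344 and 418 in ApoE4. Relative to all genes in ApoE4, however, Col5a3 at -0.98, Col27a1 at -0.59 and Col11a1 at -0.54 were past 1.3-fold lower at 21 dpi, and Col11a2 stood at 0.18. Elastin, encoded by Eln and likewise a substrate of the lysyl oxidases, had 249.6 FPKM at 7 dpi and 22.6 at 21 dpi in ApoE3, and 199.99 and 22.4 in ApoE4. At 7 dpi its log2 ratio of ApoE4 to ApoE3 was -0.32, opposite to the direction of all 9 enzyme genes.

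**Figure D3:**
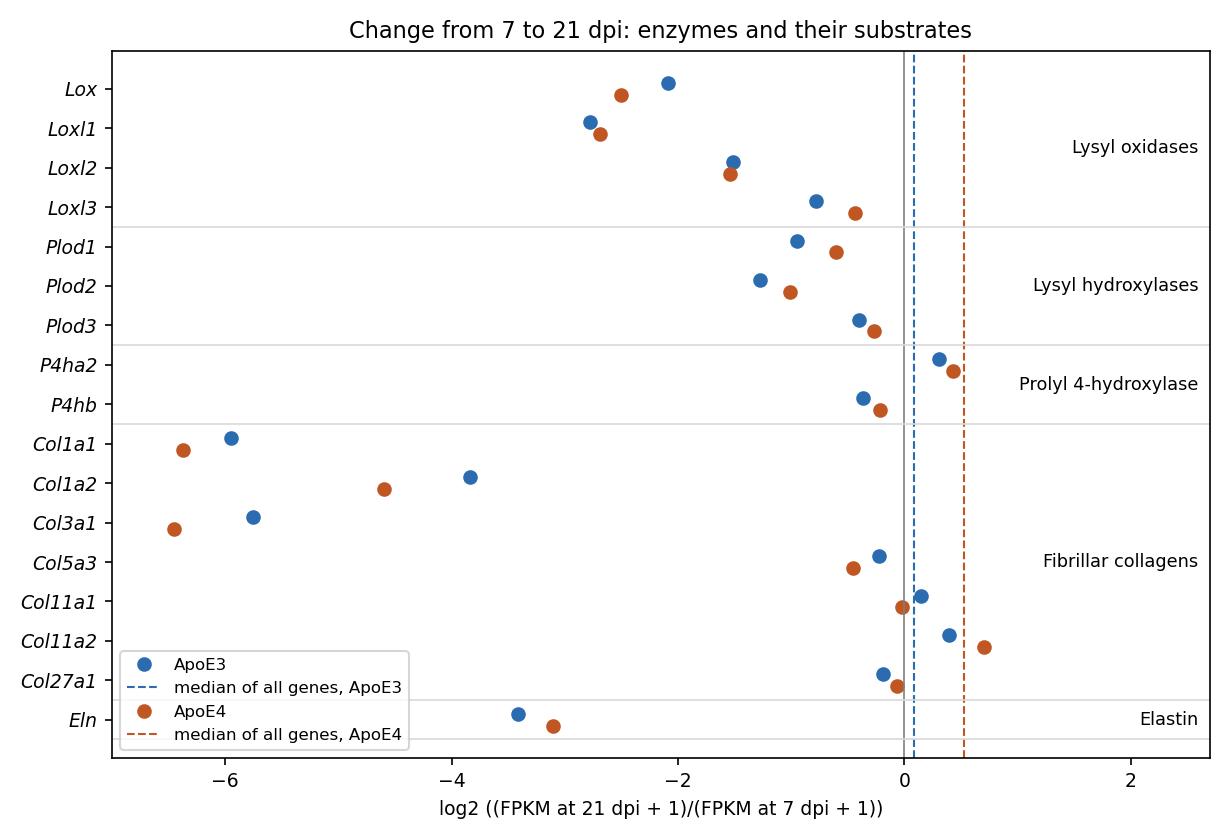
Log2 ratio of 21 to 7 dpi on the log2(FPKM + 1) scale for the enzymes, for P4hb, for the fibrillar collagens with values at both time points and for elastin, in blue for ApoE3 and orange for ApoE4, with dashed lines at the median of all genes. Loxl1 and Lox lie furthest left among the enzymes, Col1a1, Col1a2 and Col3a1 lie further left than any enzyme, and the remaining fibrillar collagens lie between -0.45 and 0.71.

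A list of other hydroxylase and collagen-modifying genes was set beside the 9 genes at 7 dpi. It also holds partner proteins such as Crtap, and P4htm, which acts on a hypoxia-inducible factor. Of its 11 genes, 7 were higher in ApoE4, 1 was past 1.3-fold higher and 0 lower, with a median log2 ratio of 0.17. The gene past the threshold was P4hb, the shared partner of both catalytic subunits of prolyl 4-hydroxylase, with 212 FPKM in ApoE3 mice and 281 in ApoE4 mice, a log2 ratio of 0.41. P3h1, a prolyl 3-hydroxylase that works in a complex with Crtap and Ppib, had 30.03 FPKM in ApoE3 and 38.9 FPKM in ApoE4, a log2 ratio of 0.36. Crtap stood at 0.30 and Ppib at 0.27, so the 3 genes of that complex had ratios close to each other. P4ha3, the remaining catalytic subunit of prolyl 4-hydroxylase, had 41.1 FPKM in the ApoE3 group and 41.2 in the ApoE4 group, and like P4ha2 it hardly differed between the genotypes.

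Of 11 genes of collagen folding and export, 2 were past 1.3-fold higher in ApoE4 and 0 lower, and the median was 0.14. They were Sec24d, which encodes a coat protein of the vesicles that carry procollagen, at 0.42, and Creb3l1, a membrane-bound transcription factor that activates collagen genes, at 0.43. Of 6 genes of procollagen processing, 0 were past the threshold higher in ApoE4 and 1 lower, with a median of 0.025. That gene was Tll1, a protease that trims procollagen ends, with 6.18 FPKM in ApoE3 compared to 3.38 in ApoE4, a log2 ratio of -0.71. Of 7 genes that bring ascorbate and copper to the enzymes, 0 were past the threshold in either direction, and the median was 0.082. The copper transporter Atp7a, which loads lysyl oxidases in the secretory pathway, had 11.99 FPKM in ApoE3 mice and 12.37 in ApoE4 mice.

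Enzymes that cross-link matrix by other chemistry had the highest median of the pathway lists, 0.53 over 4 genes, of which 3 were past 1.3-fold higher in ApoE4 and 0 lower. Tgm2, a transglutaminase, had 32.5 FPKM in the ApoE3 group and 51.5 in the ApoE4 group, a log2 ratio of 0.65. F13a1, the transglutaminase of the clotting cascade, had 36.9 FPKM in ApoE3 and 55.4 FPKM in ApoE4, a log2 ratio of 0.58. Tgm1 stood at 0.49, and Pxdn, a peroxidase that cross-links collagen type IV, stood below the threshold at 0.27. The genes of both kinds of cross-linking were thus higher in ApoE4 in all cases measured at 7 dpi.

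Among the substrates at 7 dpi, all 10 fibrillar collagen genes were higher in ApoE4, 4 of them past 1.3-fold, with a median of 0.36. These were Col2a1, Col3a1, Col5a1 and Col5a2. Col3a1 had 178 FPKM in ApoE3 compared to 243 in ApoE4, and Col5a1, a chain that sets fibril width, had 29.2 and 49.5. All 4 basement membrane collagen genes were higher, with Col4a2 at 0.48 and Col4a6 at 0.54 past 1.3-fold and a median of 0.38. Of 12 genes of elastic fibers, 5 were past 1.3-fold higher, namely Fbn2, Fbln2, Mfap4, Mfap5 and Emilin1, and 0 lower, with a median of 0.33. The medians of these substrates were therefore close to that of the 9 enzyme genes.

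Genes known to respond to low oxygen, as P4ha1 and Plod2 also do, had a median of -0.053 at 7 dpi. None of the 15 was past 1.3-fold in either direction, and 10 were lower in ApoE4. Vegfa, the angiogenic growth factor, had 247 FPKM in ApoE3 mice and 215 in ApoE4 mice, and Pgk1, a glycolytic enzyme, had 78.3 and 75.4.

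**Figure D4:**
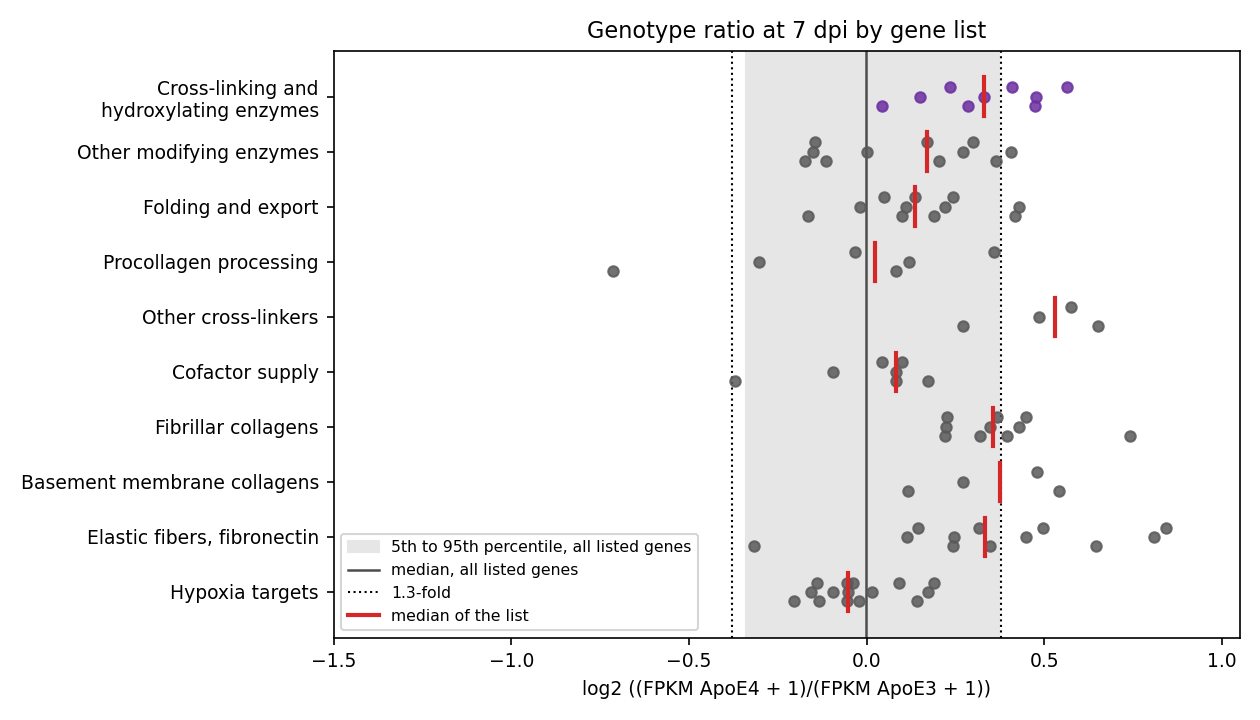
Log2 ratio of ApoE4 to ApoE3 at 7 dpi on the log2(FPKM + 1) scale, with 1 point per gene in each list, a red bar at the median of the list, the 5th to 95th percentile of all listed genes in grey and 1.3-fold as dotted lines. The enzymes, the other cross-linkers and the collagen and elastic fiber lists lie mostly right of 0, with medians from 0.33 to 0.53, and the hypoxia targets have a median of -0.053.

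At 21 dpi the same lists were read relative to the median of all rows, 0.42. The median relative to it was 0.00040 over 9 genes of the list of other modifying genes, 0.087 over 8 genes of folding and export, -0.051 over 4 of procollagen processing, -0.077 over 6 of cofactor supply and 0.0058 over 13 hypoxia targets. These lists therefore stood near the average gene, as did the enzymes at 0.048. The substrates stood lower, with a median of -0.46 over 8 fibrillar collagens, of which 5 were past 1.3-fold lower and 0 higher relative to all rows, and of -0.44 over 9 genes of elastic fibers and fibronectin, again with 5 lower and 0 higher. As computed, these medians were -0.039 and -0.013, with 2 fibrillar collagens past 1.3-fold lower and 2 higher, and 1 gene of elastic fibers and fibronectin lower and 2 higher. Of 11 fibroblast markers, 5 were past 1.3-fold lower and 0 higher relative to all rows, compared to 7.46% and 8.07% of rows. As computed, 4 of these markers were lower and 3 higher. The part of the fibroblast markers in the substrate values was not tested. The other cross-linking enzymes were split, with Tgm1 at 0.58, Pxdn at -0.22 and Tgm2 at -0.39 relative to all rows. Of basement membrane collagens only Col4a5 was used at 21 dpi, with 6.79 FPKM in the ApoE3 group and 7.38 in the ApoE4 group, at -0.32 relative to all rows.

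Markers of several cell types moved with these results, and their part in them was not tested. At 7 dpi, 4.76% of all rows were past 1.3-fold higher in ApoE4 and 3.78% lower. Of 11 macrophage markers, 5 were past 1.3-fold higher and 0 lower, with a median of 0.37. Their summed level was 7227 FPKM in ApoE3 compared to 9513 in ApoE4, and the most abundant, Lyz2, had 4522 and 6076. All 10 neuron markers were lower in ApoE4, 2 of them past 1.3-fold, Snap25 and, named after its value was seen, Gad1, with a median of -0.26 and a summed level of 5928 FPKM in ApoE3 mice and 4658 in ApoE4 mice, led by Snap25. Of 16 fibroblast markers, 13 were higher in ApoE4, 4 past 1.3-fold and 0 lower, with a median of 0.063. They summed to 1249 FPKM in the ApoE3 group and 1433 in the ApoE4 group, with Thy1, which neurons also express, the most abundant at 456 and 414. The 4 past the threshold, named after their values were seen, were Col6a3, Lum, Mfap5 and Postn, all genes of matrix components. No marker of these 3 lists stood at 0.

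The same markers differed between the time points. Over the 7 macrophage markers with values at both, the summed level was 5887 FPKM at 7 dpi and 311 at 21 dpi in ApoE3, and 7764 and 599.7 in ApoE4. All 7 were past 1.3-fold lower at 21 dpi in each genotype, both as computed and relative to all genes. Of all genes, 23.6% in ApoE3 and 10.9% in ApoE4 were lower as computed. With their median subtracted, 27.7% and 28.6% were lower and 26.6% and 26.2% higher. Of 11 fibroblast markers, 7 were past 1.3-fold lower and 4 higher in ApoE3, with a median of -1.52. In ApoE4, 9 were lower and 1 higher, with a median of -2.41. With the all-gene median subtracted, 7 of these 11 markers were lower and 3 higher in ApoE3, and 9 and 1 in ApoE4. Their summed level, dominated by Thy1, was 1093 FPKM at 7 dpi and 1230.5 at 21 dpi in ApoE3 and 1278 and 1369.5 in ApoE4. Of 8 neuron markers, 5 in ApoE3 and 8 in ApoE4 were past 1.3-fold higher at 21 dpi, compared to 31.3% and 59.0% of all genes, and relative to all genes the numbers were again 5 and 8. The part of these marker differences in the lower enzyme levels was not tested.

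At 21 dpi the groups also differed in markers of tissue outside the cord. All 8 skeletal muscle markers were higher in ApoE4, compared to 93.8% of all rows, and all 8 were past 1.3-fold higher relative to all rows, compared to 8.07% of rows, with a summed level of 34.7 FPKM in ApoE3 compared to 719 in ApoE4. Tnnt3 was the most abundant, with 22.5 and 515, and Myh4 was listed at 0 in ApoE3. All 7 liver markers were past 1.3-fold higher in ApoE4 relative to all rows too, from a sum of 10.7 to 129 FPKM, with Apoa2 the most abundant at 5.38 and 59.2. Of 8 Schwann cell markers, 6 were past 1.3-fold lower in ApoE4 and 0 higher, both as computed and relative to all rows. Of all rows, 2.02% were lower and 58.9% higher as computed, and 7.46% and 8.07% relative to their median. The Schwann cell markers had a summed level of 3154 FPKM in ApoE3 mice and 1199 in ApoE4 mice, led by Pmp22 with 1969.9 and 992. The part of such transcripts in the enzyme values was not tested.

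The genes whose profile over the 4 groups was nearest to the mean profile of the 8 enzyme genes were found among 8504 genes with a mean of at least 10 FPKM. Nearness was the Euclidean distance between log2(FPKM + 1) values, each minus the mean of its gene, over 4 values. The nearest were Lgals1 at 0.063, Tead2 at 0.074, Rab3il1 at 0.093, Cd44 at 0.093 and Spidr at 0.095. Lgals1, which encodes a galactose-binding lectin, had 141 FPKM in the ApoE3 group and 188 in the ApoE4 group at 7 dpi, and 61.7 and 84.8 at 21 dpi. Cd44, the receptor for the matrix component hyaluronan, had 325 and 380.3 FPKM at 7 dpi, and 132 and 189 at 21 dpi. Among the enzyme genes, Plod2 lay closest to their mean, at 0.23, and Loxl1 and P4ha2 furthest from it, at 1.60 and 1.52. The mean profile therefore stands for Plod2 and Plod1 better than for Loxl1, whose level differed more between the time points, or for P4ha2, whose change was positive as computed and, in ApoE4, negative relative to all genes.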

How the data were processed

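RNA of lesion segments from 4 groups of 3 male TR mice was prepared with a kit that does not mark strand and read as 100 nucleotide single ends. The authors down-sampled the libraries to equal read numbers before alignment. A lower share of reads aligned in 1 replicate, whose group is not named, and the reads per gene are unknown. STAR 2.5.4b, SAMtools 0.1.7 and Cuffdiff 1.3.0 are named in the submitters' processing notes, and the genome build is not given in the sources used here. The authors deposited FPKM plus 1, with 1 value per gene and group, and 1 was subtracted here. The deposited fold change served only to check which of the value columns is its numerator. The deposited log2 fold changes, p-values and q-values, and a table of the authors' own comparisons, were not used.

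Log2 ratios used a pseudocount of 1, and a 1.3-fold threshold, the fold of the study's methods without its q-values, was applied to all rows. No test was run. Centred values are minus the median of all rows of a comparison. The members and the 9 pathway and 11 cell type lists were chosen with earlier results of these data known. Named were the members, any genes of the pathway lists, the most abundant cell type markers and those at 0, and the 5 nearest profiles, and the pathway genes printed were picked after their values were seen. Outside this rule, neuron and fibroblast markers past the threshold at 7 dpi were also named, after their values were seen. Some list genes are not reported here by name. Alternatives were pseudocounts of 0.1 and 0.01, centring, folds of 1.5 and 2 and a mean of at least 1 FPKM. Python 3.11.15, numpy 2.4.6, pandas 2.3.3 and matplotlib 3.10.9 were used, and the computations were tested on simulated data.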

Additional observations from a re-analysis of the deposited data

Results flagged for a closer look

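Mfap5, which encodes a microfibril glycoprotein of elastic fibers and is also on the fibroblast list, moved past 1.3-fold in opposite directions at the 2 time points and in the 2 genotypes. Its log2 ratio of ApoE4 to ApoE3 was 0.65 at 7 dpi and -2.77 at 21 dpi, with 9.06 FPKM in ApoE3 compared to 14.7 in ApoE4 at 7 dpi and 19.2 and 1.97 at 21 dpi. Its log2 ratio of 21 to 7 dpi was 1.01 in ApoE3 and -2.41 in ApoE4. With 1 value per group, these differences were not tested.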

How the results depend on the processing

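At a fold of 1.5, 0 enzyme genes were past the threshold at 7 dpi and 2 at 21 dpi, and at a fold of 2 there were 0 at either time point. No share of all rows is given at these folds, so these counts have no background beside them. At 21 dpi the median log2 ratio of all rows was itself 0.42. Relative to the median of all rows, the number past 1.3-fold at 21 dpi was 0 instead of 5, the median of the enzyme genes at 21 dpi was 0.048 instead of 0.47, and their median change from 7 to 21 dpi in ApoE4 was -1.33 instead of -0.81. With a pseudocount of 0.01 the median change in ApoE3 was -1.22 instead of -1.11. Among the values put through these alternatives and past 1.3-fold as computed, directions reversed relative to all rows for P4ha2 from 7 to 21 dpi in ApoE4, at -0.098, and for Pcolce2 between the genotypes at 21 dpi, at -0.017. The subtraction of a positive median, by its construction, lowers each of these values. Not all markers and not the list medians over time were put through them, and some of those also change sign on centring, such as the median of the endothelial markers in ApoE4 from 7 to 21 dpi, at 0.49 and -0.034. The ratio of Loxl3 at 21 dpi was 0.90 with a pseudocount of 0.1 and 0.93 with 0.01, then above that of Plod2 at 0.80 and 0.81. Of 33 values of single enzyme genes, centring moved 16 by more than 0.1 log2 and changed the sign of 4, namely the change of P4ha2 in ApoE4 and the genotype ratios of Lox, P4ha2 and Plod3 at 21 dpi, and a pseudocount of 0.1 moved 7 and that of 0.01 moved 8. Of 180 values of other genes and lists, centring moved 81 and changed the sign of 31, and a pseudocount of 0.1 moved 10. Centring changed the shares of all rows higher and lower in ApoE4 at 21 dpi from 58.9% and 2.02% to 8.07% and 7.46%, and the shares of genes higher and lower at 21 dpi in ApoE4 from 59.0% and 10.9% to 26.2% and 28.6%. The counts of enzyme genes at 7 dpi were within 1.5 times under both pseudocounts, centring and a mean of at least 1 FPKM. Under both pseudocounts Loxl3 was also past 1.3-fold at 7 dpi. The median of the enzyme genes was then 0.39 with 0.1 and 0.40 with 0.01, instead of 0.33.

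No paired analysis was possible because each group had 1 value and the labels carry no replicate numbers. For the same reason leaving out a mouse was not run. The number of reads behind low values, such as those of Loxl3 and, at 21 dpi, Lox and Loxl1, is unknown.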

Other observations

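Hypoxia targets differed between the time points in the direction opposite to most collagen enzymes. Of 12 genes with values at both, 9 in ApoE3 and 10 in ApoE4 were past 1.3-fold higher at 21 dpi, compared to 31.3% and 59.0% of all genes, with medians of 0.53 and 0.97. Relative to all genes these numbers were 7 and 6, compared to 26.6% and 26.2% of all genes, with medians of 0.44 and 0.45. P4htm, a transmembrane prolyl 4-hydroxylase that acts on a hypoxia-inducible factor rather than on collagen, had 95.7 FPKM at 7 dpi and 213 at 21 dpi in ApoE3, and 84.8 and 250.5 in ApoE4. Its level was thus higher at 21 dpi while those of the collagen lysyl hydroxylases were lower. The collagen prolyl 4-hydroxylase gene P4ha2 was also higher as computed, with log2 ratios of 0.30 in ApoE3 and 0.43 in ApoE4. Relative to all genes these were 0.22 and -0.098.

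Fbln2, which encodes a fibulin of basement membranes and elastic fibers, had 50.3 FPKM in ApoE3 mice and 88.8 in ApoE4 mice at 7 dpi, and 18.4 and 14.1 at 21 dpi. Col24a1, a minor fibrillar collagen used at 21 dpi, had 14.2 FPKM in the ApoE3 group and 10.5 in the ApoE4 group, and Fn1, which encodes fibronectin, had 454 and 511. Crtap was at 13.03 FPKM in ApoE3 compared to 12.96 in ApoE4 at 21 dpi, whereas P3h1, the enzyme it binds, was at 22.7 and 39.1, so that the partners that had close genotype ratios at 7 dpi had different ones at 21 dpi.

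The remaining cell type lists had median log2 ratios of ApoE4 to ApoE3 at 7 dpi of 0.16 for 12 pericyte and smooth muscle markers, 0.041 for 12 endothelial markers, 0.090 for 7 microglial markers, -0.0010 for 9 astrocyte markers, -0.14 for 6 oligodendrocyte markers, 0.12 for 6 Schwann cell markers and -0.34 for 7 muscle markers. The muscle median was -0.69 with a pseudocount of 0.1 and -0.28 over markers with a mean of at least 1 FPKM. No liver marker was used at 7 dpi. Relative to all rows, the medians at 21 dpi were -0.18 for pericytes and smooth muscle, -0.14 for endothelium, 0.35 for macrophages, 0.28 for microglia, 0.24 for astrocytes, 0.11 for oligodendrocytes, 0.081 for neurons and -0.26 for fibroblasts.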
